A study of Homo sapiens with 9 samples.

Results

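The vacuolar H+-ATPase (V-ATPase) is the proton pump that acidifies lysosomes and endosomes. Its V1 sector sits in the cytosol and hydrolyses ATP, its V0 sector lies in the membrane and carries the protons, and several subunits exist as paralogs that differ in tissue and in the membrane to which they take the pump. The lysosomal membrane also holds heavily glycosylated structural proteins such as LAMP1 and LAMP2, as well as channels and transporters, and TFEB, TFE3 and MITF are related transcription factors that bind the E-box letters CACGTG in promoters of many lysosomal genes. In tumour cells the pump and the lysosome are known for their part in the handling of antibodies and particles taken up by endocytosis.

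Described here are 40 genes of this system, listed by symbol and matched to 40 of the 60880 Ensembl gene IDs in the count tables. They comprised 9 genes of the V0 sector, 12 of the V1 sector, 2 accessory subunits, 13 lysosomal membrane proteins, the 3 factors, and NPC2, which is a soluble protein of the lysosomal lumen although it was listed with the membrane proteins. Poly-A RNA was sequenced from SNU5, an established human gastric carcinoma line, after a treatment of 24 h. The NR group received AuNR-PEG-Ab, the SP group received AuSP-PEG-Ab, and the Ab group received the antibody ramucirumab by itself. Ramucirumab is a monoclonal antibody against VEGFR2. AuNR and AuSP are gold nanorods and gold nanospheres, PEG is the polymer that links them to the antibody, and the antibody dose was 8 µg/mL in all 3 groups. Each group had 3 libraries, 9 in all, and neither untreated cells nor particles without antibody were among the libraries analysed here. The Ab libraries serve as the reference of NR and of SP alike, so the NR and SP differences from Ab are not independent of each other.

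Libraries 1, 2 and 3 held 25735410, 13863155 and 15943980 counts in NR, 21682836, 22914759 and 20601906 in SP, against 19566064, 26318227 and 21031024 in Ab. Levels below are in CPM, read counts scaled to a common library size, after TMM scaling, which corrects for differences in composition between libraries, and they are listed in the order of libraries 1, 2 and 3. A count of 0 in a library allows up to 3 counts, which was 0.114 to 0.216 CPM and covers counting error only. Fold changes are on the log2 scale of the edgeR quasi-likelihood fit with their standard errors, and p-values were adjusted by Benjamini-Hochberg over all genes tested. The words rise and fall are used of genes with an adjusted p no higher than 0.05, and genes that also changed 2-fold or more are named called. The study describes the libraries of a group as biological replicates, but the labels do not say that they came from separate cultures, and the p-values measure the spread between these libraries.

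The labelled cell type was checked against 6 epithelial markers. KRT8, a keratin of simple epithelia, was abundant, with means of 1883 CPM in NR, 1964 in SP and 658 in Ab, and the claudin gene CLDN4 stood at 48.5, 48.6 and 45.9 CPM. The adhesion genes CDH1 and EPCAM were low, with 0.296 and 1.62 CPM in Ab and 5.65 and 5.18 CPM in NR, and KRT19 had at most 1 count in any library. The summed level of the 6 markers was 2237, 2244 and 2269 CPM in NR, 2386, 2279 and 2308 in SP, against 952, 887 and 902 in Ab. Of other cell types, the 4 fibroblast markers summed to 70.8, 67.5 and 66.6 CPM in NR, 70.9, 76.5 and 76.3 in SP, against 41.5, 39.1 and 16.5 in Ab, with COL1A1 the most abundant. Within that list DCN had means of 19.8, 21.05 and 0.537 CPM in NR, SP and Ab, while COL1A2 went the other way with 0.477, 2.14 and 7.52 CPM. The 3 endothelial markers matched of 4 listed summed to 22.9, 23.3 and 21.1 CPM in NR, 20.7, 22.6 and 24.1 in SP, against 3.59, 3.76 and 5.13 in Ab, led by CDH5. Lists for leukocytes, osteoclasts, renal intercalated cells and melanocytes, the specialised users of some genes below, summed to at most 3.66 CPM in any library, with DCSTAMP, OCSTAMP and TYR at 0 throughout. Mitochondrial genes took 4.36% to 4.66% of the counts in NR and SP and 3.41% to 3.71% in Ab. KRT8, CDH1, EPCAM, DCN, CDH5 and the mitochondrial share thus moved with the difference between the nanoparticle groups and Ab, and their part in the results below was not tested. In such bulk RNA, a change in the number of cells of a type and a change in the RNA per cell cannot be told apart.

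To show the letters that the factors of this family bind, promoters were searched on both strands for CACGTG, for the longer word TCACGTG and for the longest word, GTCACGTG. The longest is part of the motif named CLEAR, found in many lysosomal promoters, and each word contains the shorter ones. Windows of 250 bases before and 50 after a transcription start came from RefSeq (GRCh38.p14) and matched 32 of the 40 genes with 53 windows. CACGTG was present in 9 of these 32 genes (28.1%), against 8.77% of all 27305 genes with a window. TCACGTG was present in 8 (25.0%, against 4.49%) and GTCACGTG in 7 (21.9%, against 2.93%). A gene with several windows has more chances of a match. Counted by window, CACGTG was in 10 of the 53, against 7.26% of all 35116 windows. TCACGTG was in 9 of the 53 (against 3.71%) and GTCACGTG in 7 (against 2.4%). By class, CACGTG was found in 3 of 8 V0 genes, 1 of 7 V1 genes, 5 of 11 membrane genes and 0 of the 3 factors. A match is a description of the letters and says nothing of binding. The first match in a window is printed 5′ to 3′ on the gene's strand, with CACGTG in capitals, for 6 of the 7 genes that held the longest word in their window. In CLCN7 the longest word lies at another match than the first.
ATP6V0B, chr1:43974891-43974920, + strand: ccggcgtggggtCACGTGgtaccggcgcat
ATP6V0D1, chr16:67481199-67481228, - strand: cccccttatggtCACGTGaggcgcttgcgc
ATP6V1G1, chr9:114587699-114587728, + strand: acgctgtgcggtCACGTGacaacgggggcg
CD164, chr6:109382484-109382513, - strand: acaggggcctctCACGTGacccctgcgcgc
MCOLN1, chr19:7522571-7522600, + strand: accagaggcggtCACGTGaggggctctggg
CLCN7, chr16:1475058-1475087, - strand: gccgtcgctcatCACGTGgccccgtcgcgc
The LAMP1 promoter stood apart by its number of matches, with 5 copies of CACGTG in the 250 bases before the start, and these 250 bases are shown whole.
LAMP1, chr13:113296989-113297238, + strand: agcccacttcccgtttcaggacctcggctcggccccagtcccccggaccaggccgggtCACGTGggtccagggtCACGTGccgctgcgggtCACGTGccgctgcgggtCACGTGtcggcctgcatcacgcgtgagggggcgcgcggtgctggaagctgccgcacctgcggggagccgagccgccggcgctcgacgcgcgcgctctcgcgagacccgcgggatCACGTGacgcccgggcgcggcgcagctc
These promoters belonged to genes that did not move alike, as their values below show.

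Against Ab, the 40 genes did not move as a block in either nanoparticle group. In NR, 37 passed the filter on low counts, of which 20 rose, 10 fell and 7 did not pass the test. The share that rose was 54.1%, against a background of 36.4% of all 15009 genes tested, and the share that fell was 27.0%, against 36.4%. In SP, 17 of 37 rose (45.9%, against 36.4% of 15068 genes) and 10 fell (27.0%, against 36.6%). The median log2 fold change of the 37 was 0.15 in NR and 0.11 in SP, where those of all genes tested were -0.0055 and -0.0067. Called genes were ATP6V0A4, ATP6V0E2, ATP6V1A, LAPTM4B and NPC2 in both comparisons, all of them higher. These 5 of 37 (13.5%) lie near the background of genes called higher, 12.4% in NR and 12.6% in SP. No member was called lower, where 10.3% of all genes were in NR and 10.6% in SP. At a fold minimum of 1.5, 4 members passed as lower in either comparison, beside 10 as higher in NR and 11 in SP. The share of all genes passing at that minimum was not counted, so no conclusion is drawn from these counts. Of 8 V0 genes tested, 3 rose, 3 fell and 2 did not pass in both groups, with median log2 fold changes of 0.08 in NR and 0.03 in SP. Of 10 V1 genes, 5 rose and 2 fell in NR and 4 rose and 2 fell in SP, with medians of 0.16 and 0.12. Of the 13 membrane proteins, 8 rose and 4 fell in NR and 6 rose and 4 fell in SP, with medians of 0.15 and 0.09. The difference between sectors was not tested, and ATP6V0A4 passed the filter only through the nanoparticle libraries, where it is high.

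**Figure D1:**
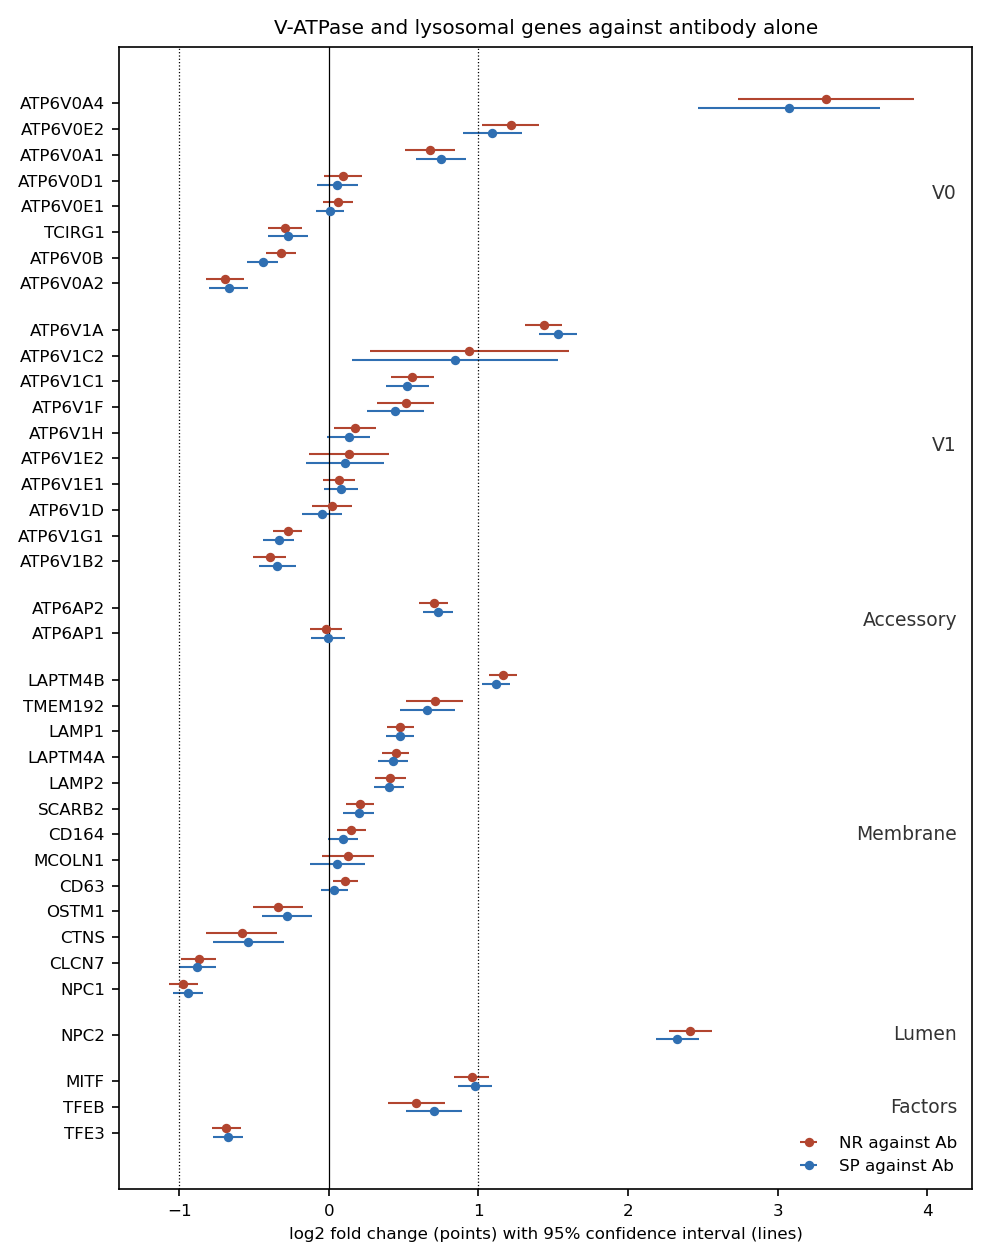
The log2 fold change (horizontal axis) of the 37 genes tested is plotted by class for NR (red) and SP (blue) against Ab, with 95% confidence intervals as lines and dotted lines at a 2-fold change. Points to the right and left of 0 are found in the V0, V1, membrane and factor classes, and ATP6V0A4, NPC2 and ATP6V1A lie farthest to the right.

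In the V0 sector, the 4 paralogs of the a subunit, the large membrane arm that directs the pump to its organelle, moved in both directions. ATP6V0A4 (ENSG00000105929, chromosome 7, 138391039 to 138484305 on GRCh37), the paralog known from renal intercalated cells, had 96, 43 and 68 counts in NR, 63, 83 and 58 in SP, against 9, 9 and 6 in Ab. That was 3.71, 3.08 and 4.24 CPM in NR, 2.88, 3.58 and 2.80 in SP, against 0.468, 0.345 and 0.29 in Ab. All 6 nanoparticle libraries stood above all 3 Ab libraries, although the level stayed low. Against Ab this was a log2 fold change of 3.32 ± 0.29 (SE) for NR (adjusted p = 2.9e-11) and of 3.07 ± 0.30 for SP (adjusted p = 3.79e-10). The Ab value rests on 6 to 9 counts per library, and the gene was not tested where 10 counts were required in every library. ATP6V0A4 passed the filter on low counts only through the nanoparticle libraries, where it is high. Its fold change and adjusted p are therefore given as a description, and no conclusion is drawn from them. FOXI1, which defines intercalated cells, reached at most 0.339 CPM in any library.

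ATP6V0A1, the paralog known from neurons, also rose. Its level was 28.5, 27.3 and 24.99 CPM in NR, 28.5, 27.01 and 29.5 in SP, against 16.8, 16.1 and 17.96 in Ab, with no overlap between either nanoparticle group and Ab. Its log2 fold change from Ab was 0.68 ± 0.08 (SE) with nanorods (adjusted p = 2.76e-08) and 0.75 ± 0.08 with nanospheres (adjusted p = 3e-09). ATP6V0A2, known from the Golgi and endosomes, fell, with 40.2, 44.1 and 41.4 CPM in NR, 42.7, 41.3 and 42.99 in SP, against 72.1, 64.8 and 66.5 in Ab. Every Ab library was above every nanoparticle library. The fitted log2 fold changes were -0.69 ± 0.06 (SE) for NR (adjusted p = 6.04e-11) and -0.67 ± 0.06 for SP (adjusted p = 1.75e-10). TCIRG1, the paralog that serves osteoclasts and lysosomes, fell by less, from 84.7, 78.9 and 78.8 CPM in Ab to 65.4, 63.5 and 68.7 in NR and 73.1, 60.7 and 65.5 in SP. Here too the groups did not overlap. In the fit, log2 fold changes of -0.29 ± 0.06 (SE) in NR (adjusted p = 3.42e-05) and -0.27 ± 0.06 in SP (adjusted p = 0.000441) were found.

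Expressed as shares of all a subunit RNA, in counts per kilobase of exon, these changes left TCIRG1 the main paralog in every library. Its share was 76.7% ± 0.416 (SD, n = 3) in Ab, 72.6% ± 0.913 in NR and 72.7% ± 1.82 in SP. The ATP6V0A2 share was 17.2% ± 0.266 in Ab, 12.3% ± 0.845 in NR and 12.4% ± 0.667 in SP. The order of ATP6V0A2 and ATP6V0A1 did not change, but they drew closer, with ATP6V0A1 at 5.73% ± 0.402 in Ab, 10.6% ± 0.920 in NR and 11.1% ± 0.646 in SP. The ATP6V0A4 share was 0.472%, 0.376% and 0.314% in Ab, 4.58%, 3.89% and 5.06% in NR, and 3.28%, 4.67% and 3.45% in SP. The total of the 4 paralogs was 22.9 ± 0.970 CPM per kilobase in Ab, 19.7 ± 0.548 in NR and 19.9 ± 1.37 in SP. Shares are given as a description, without a test. In plain counts, where long transcripts weigh more, TCIRG1 took 48.7% in Ab, 47.6% in NR and 47.3% in SP, so that its share was nearly level between groups on that scale.

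**Figure D2:**
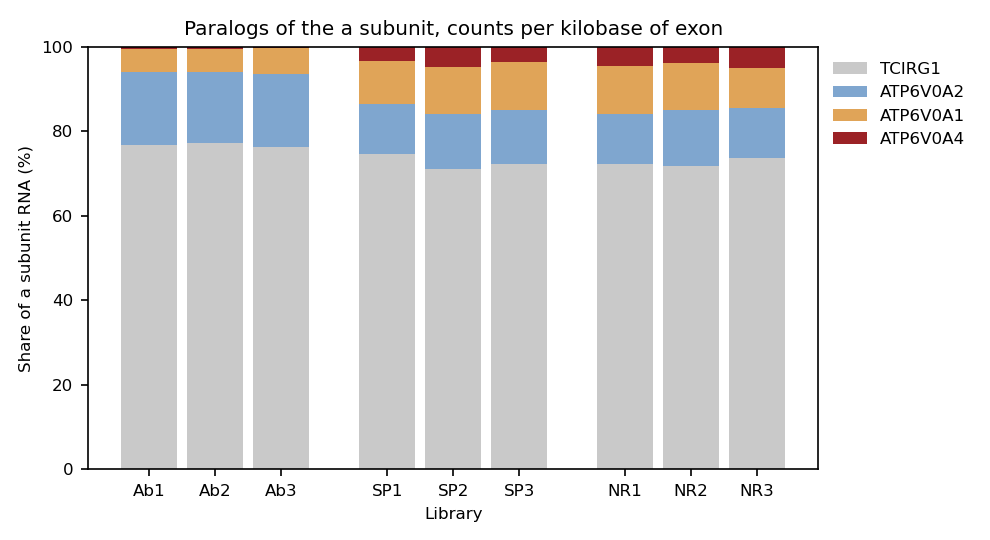
Each bar is 1 library (horizontal axis) and its segments are the shares in percent of the 4 a subunit paralogs in counts per kilobase of exon. The ATP6V0A4 segment is at most 0.472% in Ab and at least 3.28% in the SP and NR libraries, and TCIRG1 is the tallest segment in all 9.

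The small e subunit, whose role in the V0 sector is little known, has a pair of paralogs. ATP6V0E2 (ENSG00000171130, chromosome 7, 149570057 to 149588293 on GRCh37) was called, with 32.97, 33.7 and 35.2 CPM in NR, 31.3, 29.6 and 32.2 in SP, against 16.8, 15.1 and 12.01 in Ab. The Ab libraries were all lower than the others. Against Ab this was a log2 fold change of 1.22 ± 0.09 (SE) for NR (adjusted p = 6.47e-12) and of 1.09 ± 0.09 for SP (adjusted p = 1.06e-10). In SP it fell short of 2-fold when the third Ab library was left out, and other genes overlap 19.7% of its exon bases, mainly an antisense gene whose reads cannot be told apart from its own where strand is not used. ATP6V0E1 held the bulk of this subunit and overlapped between groups, with 241, 231 and 212 CPM in NR, 219, 215 and 223 in SP, against 226, 214 and 217 in Ab. Its log2 fold change from Ab was 0.06 ± 0.05 (SE) with nanorods (adjusted p = 0.242) and 0.01 ± 0.05 with nanospheres (adjusted p = 0.862). The ATP6V0E2 share of the subunit, per kilobase, was 1.57% ± 0.231 in Ab, 3.45% ± 0.338 in NR and 3.27% ± 0.085 in SP (SD, n = 3). In plain counts it was 6.25% in Ab, 13.0% in NR and 12.4% in SP, the shorter ATP6V0E1 weighing less on that scale.

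The remaining V0 genes are parts of the proton-carrying ring and its link to the stalk. ATP6V0B, a ring subunit, fell from 167, 152 and 159 CPM in Ab to 132, 121 and 128 in NR and 113, 118 and 119.6 in SP. The fitted log2 fold changes were -0.32 ± 0.05 (SE) for NR (adjusted p = 1.29e-06) and -0.44 ± 0.05 for SP (adjusted p = 1.09e-08). ATP6V0D1, which joins the ring to the central stalk, stood at means of 59.1 ± 0.841 CPM in NR, 57.3 ± 3.20 in SP and 55.5 ± 4.68 in Ab (SD, n = 3) and did not pass the test in either group. ATP6V0C, the main ring subunit, which the pump needs in every cell, had at most 10 counts in any library and was not tested. In the annotation used here, 76.3% of its exon bases also belong to other genes, so this count is uncertain as a level of the subunit.

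The V1 sector showed its largest change in the catalytic A subunit. ATP6V1A (ENSG00000114573, chromosome 3, 113465617 to 113530903 on GRCh37) had 98.5, 108 and 105 CPM in NR, 109, 113 and 110.5 in SP, against 37.6, 41.4 and 35.9 in Ab. Each nanoparticle library was more than 2-fold above each Ab library. In the fit, log2 fold changes of 1.44 ± 0.06 (SE) in NR (adjusted p = 4.17e-18) and 1.54 ± 0.06 in SP (adjusted p = 2.31e-18) were found. ATP6V1B2, which encodes the B subunit that alternates with A in the catalytic head, moved the opposite way, with 59.2, 57.7 and 59.6 CPM in NR, 64.4, 59.97 and 58.1 in SP, against 80.03, 76.2 and 76.7 in Ab. Against Ab this was a log2 fold change of -0.40 ± 0.05 (SE) for NR (adjusted p = 2.38e-07) and of -0.34 ± 0.06 for SP (adjusted p = 9.36e-06). Per kilobase of exon, the A subunit stood at 6.05 ± 0.439 CPM in Ab, 16.4 ± 0.774 in NR and 17.5 ± 0.310 in SP. The corresponding levels of the B subunit were 9.97 ± 0.274, 7.55 ± 0.132 and 7.81 ± 0.422 (SD, n = 3), so A was below B in the Ab libraries and above it in all others. ATP6V1B1, the B paralog of kidney and inner ear, had at most 1 count in any library, and other genes overlap 63.1% of its exon bases.

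The stalks and regulatory parts of V1 also differed among themselves. ATP6V1C1, which links the head to the membrane arm, rose from 30.5, 36.6 and 34.9 CPM in Ab to 52.6, 49.7 and 47.5 in NR and 46.8, 48.2 and 51.2 in SP, log2 fold changes of 0.56 and 0.52 (adjusted p = 5.13e-08 and 1.75e-07). Its paralog ATP6V1C2 was near the limit of these depths, with 1.62, 1.22 and 2.06 CPM in NR, 1.14, 2.02 and 1.40 in SP, against 0.676, 0.575 and 1.36 in Ab, and the groups overlapped. It passed the edgeR test (log2 fold changes 0.94 and 0.84, adjusted p = 0.0112 and 0.0265) but not DESeq2 (adjusted p = 0.0794 and 0.116), and it failed in edgeR too without NR library 3 or Ab library 2 in NR and without SP library 2 or Ab library 1 or 2 in SP (adjusted p from 0.0777 to 0.208). Other genes overlap 29.8% of its exon bases. ATP6V1F, of the central stalk, rose from 14.1, 14.1 and 12.2 CPM in Ab to 18.5, 19.3 and 20.2 in NR and 17.7, 17.7 and 19.4 in SP (log2 fold changes 0.52 and 0.44), with 20.6% of its exon bases overlapped by other genes. ATP6V1D, its partner in that stalk, overlapped between groups, with means of 50.8, 48.3 and 50.1 CPM in NR, SP and Ab. In the peripheral stalks, ATP6V1G1 fell from 124, 129 and 127 CPM in Ab to 108, 103 and 102 in NR and 101, 97.2 and 101 in SP, log2 fold changes of -0.28 and -0.33. The E subunit genes ATP6V1E1 and ATP6V1E2 did not pass the test, with fold changes on the log2 scale between 0.07 and 0.14. ATP6V1G2, known from neurons, had 0 counts in all 9 libraries. ATP6V1H, which regulates ATP hydrolysis, had a log2 fold change of 0.18 in NR (adjusted p = 0.024) and 0.13 in SP (adjusted p = 0.0884), and the first did not pass DESeq2 (adjusted p = 0.0804) or edgeR without NR library 1 or 3 or Ab library 2 (adjusted p from 0.0692 to 0.165). Of the accessory subunits, ATP6AP2, also known as the prorenin receptor, rose from 141, 158 and 158 CPM in Ab to 246, 244 and 252 in NR and 245, 255 and 255 in SP (log2 fold changes 0.70 and 0.73). ATP6AP1 stood at 83.7, 84.1 and 84.9 CPM on average and did not pass.

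Summed over each class in CPM per kilobase of exon, the V0 genes reached 223, 212 and 204 in the NR libraries, 204, 199.8 and 207 in the SP libraries and 226, 211 and 215 in the Ab libraries. NR overlapped with both other groups, while every SP library was below every Ab library. For the V1 genes the NR libraries gave 144, 140.1 and 141, the SP libraries 141, 136 and 141, and the Ab libraries 125, 128 and 128, which were the lowest. For the 13 membrane proteins the NR libraries gave 560.4, 564 and 563, the SP libraries 528, 546 and 563, and the Ab libraries 462, 448 and 455, again the lowest. For the 2 accessory subunits the sums were 40.3, 40.6 and 41.0 in NR and 40.3, 41.4 and 41.8 in SP. Ab was lowest there too, with 30.4, 30.9 and 31.4. The 3 factors went the other way, with 64.2, 60.1 and 60.5 in Ab. Their sums were 48.2, 49.7 and 50.8 in NR and 50.5, 48.9 and 51.0 in SP. The V0 sum holds almost nothing of ATP6V0C, the main ring subunit, whose count is uncertain, so its level against the other classes is not interpretable. These sums weigh abundant genes most and were not tested.

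Among the structural membrane proteins, LAMP1, which with LAMP2 makes up much of the lysosomal membrane protein, rose modestly. It had 285, 296 and 296 CPM in NR, 286, 286 and 299 in SP, against 219, 204 and 207 in Ab. Its log2 fold change from Ab was 0.48 ± 0.04 (SE) with nanorods (adjusted p = 1.18e-10) and 0.48 ± 0.05 with nanospheres (adjusted p = 3.54e-10). LAMP2, which also serves in chaperone-mediated autophagy, had 139.9, 149.9 and 158 CPM in NR, 148, 148 and 147 in SP, against 111, 116 and 111 in Ab. The fitted log2 fold changes were 0.41 ± 0.05 (SE) for NR (adjusted p = 3.52e-08) and 0.40 ± 0.05 for SP (adjusted p = 2.93e-08). Neither gene reached a 2-fold change, and for both no nanoparticle library overlapped with Ab. SCARB2, the receptor that takes β-glucocerebrosidase to the lysosome, rose with log2 fold changes of 0.21 in NR and 0.20 in SP (means 142, 140.5 and 123 CPM in NR, SP and Ab). The tetraspanin CD63 and the sialomucin CD164 passed the test in NR (log2 fold changes 0.11 and 0.15, adjusted p = 0.0191 and 0.006). In SP their values were 0.04 and 0.09 (adjusted p = 0.455 and 0.087). Neither differed between NR and SP past the adjusted p (adjusted p = 0.377 and 0.565), and in NR CD164 failed without NR library 2 (adjusted p = 0.0511) and CD63 without NR library 1 or 2 or Ab library 2 or 3 (adjusted p from 0.0602 to 0.124).

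LAPTM4B (ENSG00000104341), a transmembrane protein of late endosomes and lysosomes that is often abundant in carcinomas, was the called gene of this class. It had 269, 273 and 272 CPM in NR, 257, 263 and 264 in SP, against 119.9, 124 and 119.7 in Ab, so that the NR and SP libraries lay close together and all of them far above Ab. In the fit, log2 fold changes of 1.16 ± 0.04 (SE) in NR (adjusted p = 3.22e-19) and 1.12 ± 0.05 in SP (adjusted p = 4.18e-18) were found. Its relative LAPTM4A rose by less, from 179, 174 and 178 CPM in Ab to 239.96, 239.8 and 242 in NR and 227, 233 and 251 in SP (log2 fold changes 0.45 and 0.43). TMEM192, a lysosomal membrane protein widely used as a handle to isolate lysosomes, rose with log2 fold changes of 0.71 and 0.66.

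The cholesterol export pair moved in opposite directions. NPC2 (ENSG00000119655, chromosome 14, 74942895 to 74960880 on GRCh37), the lumenal protein that hands cholesterol to NPC1, had 92.8, 84.6 and 81.4 CPM in NR, 76.3, 79.9 and 87.4 in SP, against 16.2, 16.8 and 15.6 in Ab. The lowest nanoparticle library held more than 4 times the highest Ab library. Against Ab this was a log2 fold change of 2.42 ± 0.07 (SE) for NR (adjusted p = 4.07e-22) and of 2.33 ± 0.07 for SP (adjusted p = 4.19e-21). NPC1, the membrane transporter of the pair, had 103, 105 and 111 CPM in NR, 103, 109.6 and 111 in SP, against 213, 209 and 204 in Ab, and every Ab library was higher than every other. Its log2 fold change from Ab was -0.97 ± 0.05 (SE) with nanorods (adjusted p = 8.68e-17) and -0.94 ± 0.05 with nanospheres (adjusted p = 6.89e-16). Neither quite reached a 2-fold fall. CLCN7, the chloride and proton exchanger of lysosomes, 15.7% of whose exon bases other genes overlap, had 52.4, 53.8 and 56.9 CPM in NR, 51.2, 57.2 and 53.03 in SP, against 105, 95.9 and 97.7 in Ab. The fitted log2 fold changes were -0.87 ± 0.06 (SE) for NR (adjusted p = 5.46e-14) and -0.88 ± 0.06 for SP (adjusted p = 3.48e-13). Its partner subunit OSTM1 fell with log2 fold changes of -0.34 and -0.28. The cystine exporter CTNS fell with log2 fold changes of -0.58 and -0.54. MCOLN1, the lysosomal calcium channel, did not pass the test (means 25.7, 24.4 and 23.6 CPM in NR, SP and Ab).

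**Figure D3:**
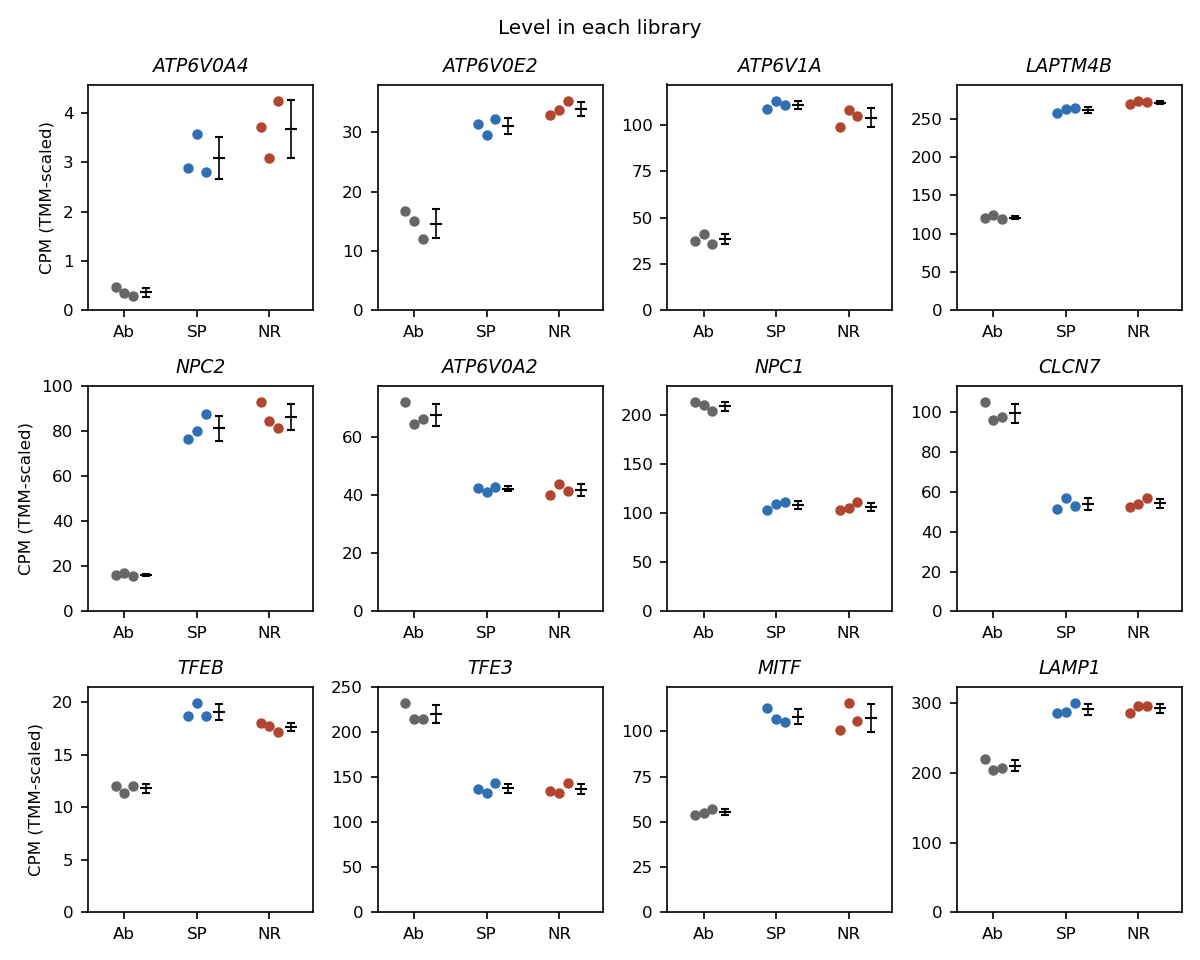
Each panel gives 1 gene, with the TMM-scaled CPM of each library (vertical axis, from 0) as points by group (Ab grey, SP blue, NR red) and the mean ± SD as bars to the right. In all 12 panels the Ab points are separate from the SP and NR points, below them for ATP6V0A4, ATP6V0E2, ATP6V1A, LAPTM4B, NPC2, TFEB, MITF and LAMP1 and above them for ATP6V0A2, NPC1, CLCN7 and TFE3. The 12 genes are a selection, and members whose groups overlap, such as ATP6V0D1 and ATP6V0E1, have no panel. The share of all genes separated in this way was not counted.

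The 3 factors did not move together. TFEB, the best known regulator of lysosome biogenesis, had 18.01, 17.7 and 17.2 CPM in NR, 18.7, 19.9 and 18.6 in SP, against 12.1, 11.3 and 12.1 in Ab. In the fit, log2 fold changes of 0.58 ± 0.09 (SE) in NR (adjusted p = 2.59e-06) and 0.70 ± 0.09 in SP (adjusted p = 9.96e-08) were found. MITF, known as the master regulator of melanocytes, had 101, 116 and 106 CPM in NR, 113, 107 and 105 in SP, against 53.8, 54.8 and 57.1 in Ab. Against Ab this was a log2 fold change of 0.96 ± 0.06 (SE) for NR (adjusted p = 9.83e-15) and of 0.98 ± 0.06 for SP (adjusted p = 8.83e-15). Both lay just under 2-fold. TFE3, a close relative of both, fell, with 134, 133 and 143 CPM in NR, 137, 133 and 143 in SP, against 232, 214 and 215 in Ab. Its log2 fold change from Ab was -0.69 ± 0.05 (SE) with nanorods (adjusted p = 3.07e-13) and -0.67 ± 0.05 with nanospheres (adjusted p = 1.41e-12). The melanocyte marker list summed to at most 1.25 CPM in Ab and 3.66 in the other libraries. These factors are controlled largely by their entry into the nucleus, which RNA levels do not measure. Of the 7 genes whose promoters held GTCACGTG, LAMP1 rose in both groups, CD164 in NR, ATP6V0B, ATP6V1G1 and CLCN7 fell in both, and ATP6V0D1 and MCOLN1 did not pass. Of the 5 called genes, ATP6V0E2 held the shorter TCACGTG, ATP6V0A4 and NPC2 had no match in their windows, and ATP6V1A and LAPTM4B were not among the genes with a window.

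Other genes of the pathway were taken from 4 lists. Of the V-ATPase assembly and regulation genes, 12 of 15 were tested, of which 5 rose (41.7%) and 4 fell (33.3%) in NR and 8 rose (66.7%) and 3 fell (25.0%) in SP, where 36.4% of all genes rose in either group and 36.4% and 36.6% fell. The falls include RNASEK, named after its counts were seen, whose counts were 37, 26 and 28 in Ab, 7, 2 and 5 in NR, and 6, 10 and 11 in SP. It passed the filter only through Ab, where it is high, and other genes overlap 43.3% of its exon bases. NCOA7, whose protein binds the pump, rose (log2 fold changes 0.48 in NR and 0.56 in SP), as did the assembly factor gene CCDC115 (0.80 and 0.84), while MEAK7, of the same TLDc domain family as NCOA7, fell (-0.95 and -0.85). Of 22 nutrient sensing and TFEB control genes tested, 9 rose (40.9%) and 8 fell (36.4%) in each group, shares near those of all genes. In this list 2 of the 22 genes, RRAGC and FLCN, were called lower and 0 were called higher. Their share lies near that of all genes called lower, 10.3% in NR and 10.6% in SP. Of all genes, 12.4% in NR and 12.6% in SP were called higher. RRAGC, a Rag GTPase, had 17.2, 16.1 and 15.5 CPM in NR, 16.1, 15.9 and 15.6 in SP, against 35.1, 33.99 and 34.96 in Ab (log2 fold changes -1.08 and -1.12). FLCN, whose protein activates the GTPase of RRAGC, had 6.22, 7.60 and 6.17 CPM in NR, 7.46, 6.76 and 6.91 in SP, against 16.7, 18.2 and 19.5 in Ab (log2 fold changes -1.46 and -1.36). LAMTOR4, of the complex that anchors the Rag GTPases to the lysosome, rose (0.99 and 0.93). Between 11.9% and 23.1% of the exon bases of RRAGC, FLCN and LAMTOR4 are shared with other genes.

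Of 23 lysosome positioning and fusion genes, 10 rose (43.5%) and 9 fell (39.1%) in NR and 10 rose (43.5%) and 8 fell (34.8%) in SP, where 36.4% of all genes rose and 36.4% and 36.6% fell. VAMP8, a SNARE of late endosome and lysosome fusion, rose from 22.3, 19.01 and 21.01 CPM in Ab to 70.7, 70.1 and 62.95 in NR and 64.4, 59.1 and 63.1 in SP (log2 fold changes 1.72 and 1.59). VPS18, a core subunit of the tethering complexes, rose (1.02 and 1.07), and PLEKHM2, which couples lysosomes to kinesin, fell (-1.02 and -0.94). Of 26 other lysosomal membrane genes tested of 32, 15 rose (57.7%) and 6 fell (23.1%) in NR and 17 rose (65.4%) and 6 fell (23.1%) in SP, against the same shares of all genes. These counts include TSPAN1 and SPNS1, which have few counts in the group where they are low and passed the filter only through the other. Other genes overlap 62.7% of the exon bases of SPNS1. The median log2 fold changes of this list were 0.39 and 0.47, where those of all genes tested were -0.0055 and -0.0067. SIDT2, a lysosomal nucleic acid transporter, rose (1.51 and 1.62), as did the sialic acid exporter gene SLC17A5 (1.29 and 1.30) and the lipid transporter gene ABCA2 (0.93 and 0.97).

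NR was also compared with SP directly. By the paper's methods, the rods and spheres differ in size and supplier as well as in shape. The parts of these in any difference cannot be told apart. By edgeR with Benjamini-Hochberg adjustment, 0 of the 37 genes tested passed the adjusted p, where 0.443% of all 14903 genes did, and DESeq2, which gave an adjusted p to 19 of the 37, gave 0 among those. At an unadjusted p under 0.05 there were 3, where 12.9% of all genes were, namely ATP6V0B, ATP6V1A and CD63. ATP6V0B was 132, 121 and 128 CPM in NR against 113, 118 and 119.6 in SP, the NR libraries all being higher. The log2 fold change was 0.12 with a 95% confidence interval of 0.03 to 0.21 (adjusted p = 0.222), the smallest adjusted p among the 37. For ATP6V1A it was -0.10 (adjusted p = 0.379) and for CD63 0.08 (adjusted p = 0.377). Over the 37, log2 fold changes ran from -0.11 (TFEB) to 0.25 (ATP6V0A4), with a median of 0.02. The intervals of all 37 lay between -0.48 and 0.68, so that a 2-fold difference between NR and SP was outside the interval of each of these genes. The widest were those of the low genes ATP6V1C2 and ATP6V0A4, the latter from -0.14 to 0.64. No gene of the 4 other lists passed the adjusted p in this comparison by edgeR either. Their log2 fold changes ran wider, from -0.36 among the assembly and regulation genes to 1.98 among the positioning and fusion genes. The smallest edgeR adjusted p of the positioning and fusion list was 0.187. What is said above of a 2-fold difference holds for the 37 genes only.

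**Figure D4:**
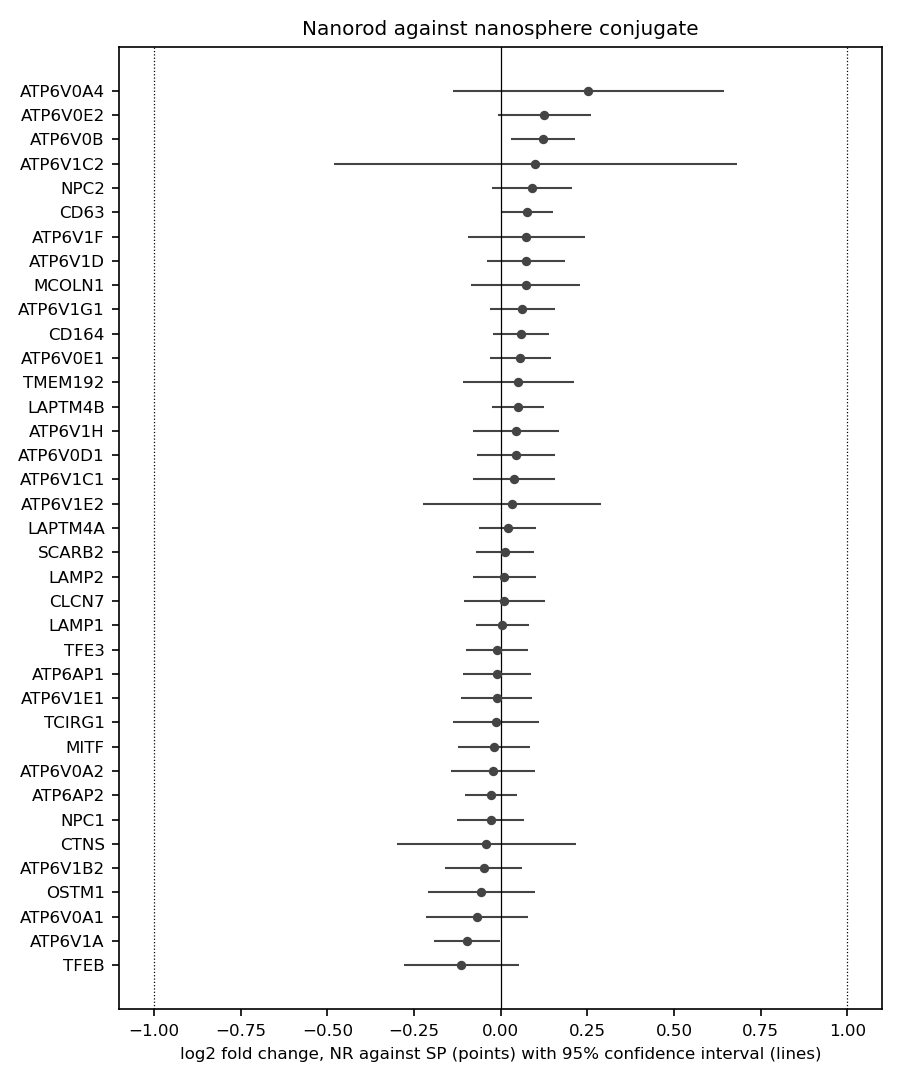
Points are log2 fold changes of NR against SP (horizontal axis) for the 37 genes tested, lines are 95% confidence intervals, and dotted lines mark a 2-fold change. All points lie between -0.11 and 0.25, and every interval ends inside the dotted lines.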

How the data were processed

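SNU5 cells treated with NR, SP or Ab gave 9 poly-A RNA-seq libraries, 3 per group, grouped by their labels. The deposited values were whole raw read counts per Ensembl gene, not scaled between libraries. The authors filtered the reads (adapters, poly-N, low quality), aligned them with HISAT2 2.1.0 and counted them per gene, with the counter named differently in the methods and the reporting summary. The reporting summary names hg19, whereas the submitters' processing notes list mm9 and DESeq2 1.16.1. The IDs are human. The annotation release, the strand setting, the handling of reads in overlapping genes and any sequencing batch were not given in the sources used here, so a batch and a group cannot be told apart.

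Names, positions, exon lengths and shared exon bases came from GENCODE release 44 mapped to GRCh37, which held 59858 of 60880 IDs. The share of a library's counts in the other 1022 was 0.115% or less. Members were matched by symbol, and 40 of 40 were found. The 6 libraries of each pair of groups were fitted separately in R 4.3.3 by the robust quasi-likelihood test of edgeR 4.0.16, after filterByExpr with a count of 10 and a total of 15 as minima, and TMM scaling. P-values were adjusted by Benjamini-Hochberg over all genes tested, and a call needed an adjusted p no higher than 0.05 and a 2-fold change or more. The steps were tested on simulated data. Intervals are at the 95% level.

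The members and the lists were chosen with earlier results of these data known. Genes given in full are all those called, the 3 factors, LAMP1, LAMP2 and the paralogs of a called subunit. Others were given by value, and 4 of them, ATP6V0B, ATP6V1B2, NPC1 and CLCN7, were also given in full, chosen after their values were seen. Of each further list, those given with fold changes are the 3 with the smallest adjusted p (the larger of NR and SP). RNASEK, TSPAN1 and SPNS1 were named besides, as genes that passed the filter only through the group where they are high. Alternatives were DESeq2 1.42.0, size factors by relative log expression, a filter of only 1 count in total, a filter of 10 counts in each library, a joint fit of all 9 libraries, a replicate block, a fold minimum of 1.5, a test against the 2-fold threshold (glmTreat), plain counts for the paralog shares and each library left out in turn. Tables were made with pandas 2.3.3 and numpy 2.4.6 and figures with matplotlib 3.10.9, in Python 3.11.15.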

Additional observations from a re-analysis of the deposited data

How the results depend on the processing

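The count of members past the adjusted p stayed within 1.5 times its value in every alternative run, with 27 to 32 in NR against Ab, 26 to 27 in SP against Ab and 0 in NR against SP when 1 library was left out. Called members were 5 to 6 in both comparisons with Ab when 1 library was left out. The sixth was ATP6V1C2 without NR library 2 or Ab library 3 in NR and without SP library 1 in SP, NPC1, called lower, without NR library 3, and MITF without SP library 3, while ATP6V0E2 lost its SP call to ATP6V1C2 without Ab library 3. With a fold minimum of 1.5 the calls rose to 14 in NR (10 higher, 4 lower) and 15 in SP (11 higher, 4 lower), so that calls were no longer all higher, as that rule takes in smaller changes. The share of all genes called at that minimum was not counted. Requiring 10 counts in every library left 4 in both, since ATP6V0A4 was then not tested, and glmTreat gave 5 in NR and 4 in SP. Some members near the threshold changed side, and the cause was not tested. ATP6V1C2 ran from 0.68 to 1.40 in NR and from 0.56 to 1.30 in SP with 1 library left out. In NR it failed without NR library 3 or Ab library 2, ATP6V1H without NR library 1 or 3 or Ab library 2, CD164 without NR library 2, and CD63 without NR library 1 or 2 or Ab library 2 or 3, while ATP6V0D1 and MCOLN1 passed without Ab library 1 (adjusted p = 0.00754 and 0.0305). In SP, ATP6V1C2 failed without SP library 2 or Ab library 1 or 2. By DESeq2, ATP6V1C2 in both groups and ATP6V1H in NR did not pass the adjusted p.

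Signs turned only for members that did not pass the test. With 1 library left out, the log2 fold change ran from -0.049 to 0.012 for ATP6AP1 and from -0.042 to 0.067 for ATP6V1D in NR, and from -0.038 to 0.026 for ATP6AP1, from -0.012 to 0.029 for ATP6V0E1 and from -0.034 to 0.13 for MCOLN1 in SP. In SP, ATP6AP1 also turned to 0.0042 with DESeq2 and 0.0024 without the filter, and ATP6V0E1 to -0.0066 with 10 counts required in every library.

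In plain counts the shares were, in NR, SP and Ab, 19.5%, 20.2% and 10.2% for ATP6V0A1, 30.3%, 30.2% and 40.8% for ATP6V0A2, 47.6%, 47.3% and 48.7% for TCIRG1, 2.66%, 2.21% and 0.221% for ATP6V0A4, and 13.0%, 12.4% and 6.25% for ATP6V0E2 within the e subunit. With the replicate number as a block the members past the adjusted p were 30, 27 and 0 and those called 5, 5 and 0 in NR against Ab, SP against Ab and NR against SP, as without it. Libraries that share a number correlated at -0.099 to 0.041 in their deviations from the group means, and those with different numbers at -0.066 to 0.116. With 3 libraries per group, these values cannot tell whether libraries of the same number shared a culture or a sequencing run. Low counts limit what can be said of ATP6V0A4 in Ab, ATP6V1C2, ATP6V0C, ATP6V1B1 and ATP6V1G2. Other genes overlap 76.3% of the exon bases of ATP6V0C and 63.1% of those of ATP6V1B1. The cause of the low counts was not tested.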
